A study of Drosophila melanogaster with 25 samples.

Results

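The RNAs described here are 58 genes whose nuclear transcripts were abundant, on average, in the Kc inputs and nearly missing from the BG3 inputs. They were chosen by level alone: a mean of at least 20 CPM (a gene's counts divided by its library's gene total, on the usual scale) over the 6 Kc inputs and a mean below 1 CPM over the 2 BG3 inputs. The 58 are 0.362% of the 16036 gene identifiers counted and 1.33% of the 4367 genes that reached 20 CPM in the Kc inputs. The inputs of both lines therefore chose them, and their input levels below are a description. The question is how these Kc-restricted RNAs fared in the precipitates.

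RNA immunoprecipitation followed by sequencing (RIP-seq) recovers a protein with an antiserum and sequences the RNA that comes along. Su(Hw) is a zinc-finger protein that binds DNA at the gypsy insulator, a sequence that separates regulatory domains of the genome. Shep is an RNA-binding protein known to counteract gypsy insulator function in neural tissue. Kc167 is a Drosophila melanogaster line from embryos with properties of haemocytes, the blood cells of the fly, and BG3 is a line from the larval central nervous system.

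All samples were untreated cultured cells, and the labels give no genotype or added agent. Kc cells supplied 6 inputs, 3 precipitates with the Shep antiserum Rb5, 2 with Rb6, 2 with Gp01 and 3 with the Su(Hw) antiserum Gp60. BG3 cells supplied 2 inputs, 2 Rb5 precipitates and 2 Su(Hw) precipitates. Each line is a single established culture line, all extracts were nuclear and cleared with preimmune serum, and RNA was selected for poly(A) tails. The labels number biological replicates without saying whether cultures were separate, so p-values measure the spread between these samples.

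Gene counts per library ran from 5605200 to 57239289. A library that is listed 2 times with identical values was counted once, which applied to 3 Kc libraries (input 3, Rb5 3 and Su(Hw) 2) and left 22 libraries of 25 samples. The labels divide the libraries by sequencing machine and quality code into 4 classes. The GA II alone gave Kc inputs 1 and 2, the first pair of Rb5 libraries (Rb5 1, Rb5 2) and Su(Hw) 1, while input 3, Rb5 3 and Su(Hw) 2 ran on both machines. The HiSeq with code PHRED33 gave 1 library each of input (6), Gp01 (2) and Rb6 (2). The rest, all of BG3 among them, are HiSeq with code PHRED64: inputs 4 and 5, and library 1 of Gp01, library 1 of Rb6 and library 3 of Su(Hw) in Kc. No mock precipitate was used here, and every value is a share of its library, with no outside standard. Of the 30 haemocyte markers 3 could be matched to an identifier: LanA, a laminin subunit, stood at 743 CPM in the Kc and 251 CPM in the BG3 inputs, Idgf3, a secreted growth factor, at 201 and 2.07 CPM, and gcm2, a glial and blood transcription factor, near 0 in both. Of 14 neuronal and 11 neuroblast markers 0 could be matched, so the labelled cell types could hardly be checked, and whether any of the 58 is a marker is unknown here.

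None of the 58 identifiers carries a symbol in the deposited tables or in the name table used here, so they are given by identifier and no role is stated for them. The wording that they occur only in Kc cells holds as a threshold. In the 2 BG3 inputs 7 of the 58 had 0 counts, and the others had some. At the Kc threshold, FBgn0034605 (20.3 ± 12.8 CPM, SD, n = 6), FBgn0261258 (20.7 CPM) and FBgn0053784 (21.3 CPM) fell just inside. FBgn0051642 (19.7 CPM), FBgn0038291 (19.4 CPM) and FBgn0052703 (19.1 CPM) fell just outside. At the BG3 threshold, FBgn0038347 (0.990 CPM), FBgn0035497 (0.964 CPM) and FBgn0035948 (0.910 CPM) fell just inside. FBgn0037562 (1.15 CPM), FBgn0030271 (1.15 CPM) and FBgn0035542 (1.22 CPM) fell just outside.

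Most of the 58 were moderate RNAs and a few were abundant. Their mean level in the Kc inputs ran from 20.3 to 533 CPM with a median of 36.5 CPM. Of the 58, 5 exceeded 100 CPM, 14 lay between 50 and 100 CPM and 39 between 20 and 50 CPM. In all 6 Kc inputs 28 reached 20 CPM, and 30 fell below 20 CPM in at least 1. The reverse set, at 20 CPM in the BG3 inputs and below 1 CPM in the Kc inputs, held 97 of 4258 genes.

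From here on, levels are CPM scaled by edgeR's TMM factors, which correct each library for differences in RNA composition, unless CPM on library totals is named. FBgn0262035 was the most abundant of the 58, at 237, 510.2 and 733 TMM-scaled CPM (lowest, median and highest of the 6 Kc inputs). FBgn0034716 ran from 122 through a median of 204 to 319.9 TMM-scaled CPM, and FBgn0063498 from 76.3 through 119 to 185 TMM-scaled CPM (these 2 were chosen for abundance after their values were seen). With FBgn0040813 and FBgn0029167, described below, these are the 5 above 100 CPM.

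**Figure D1:**
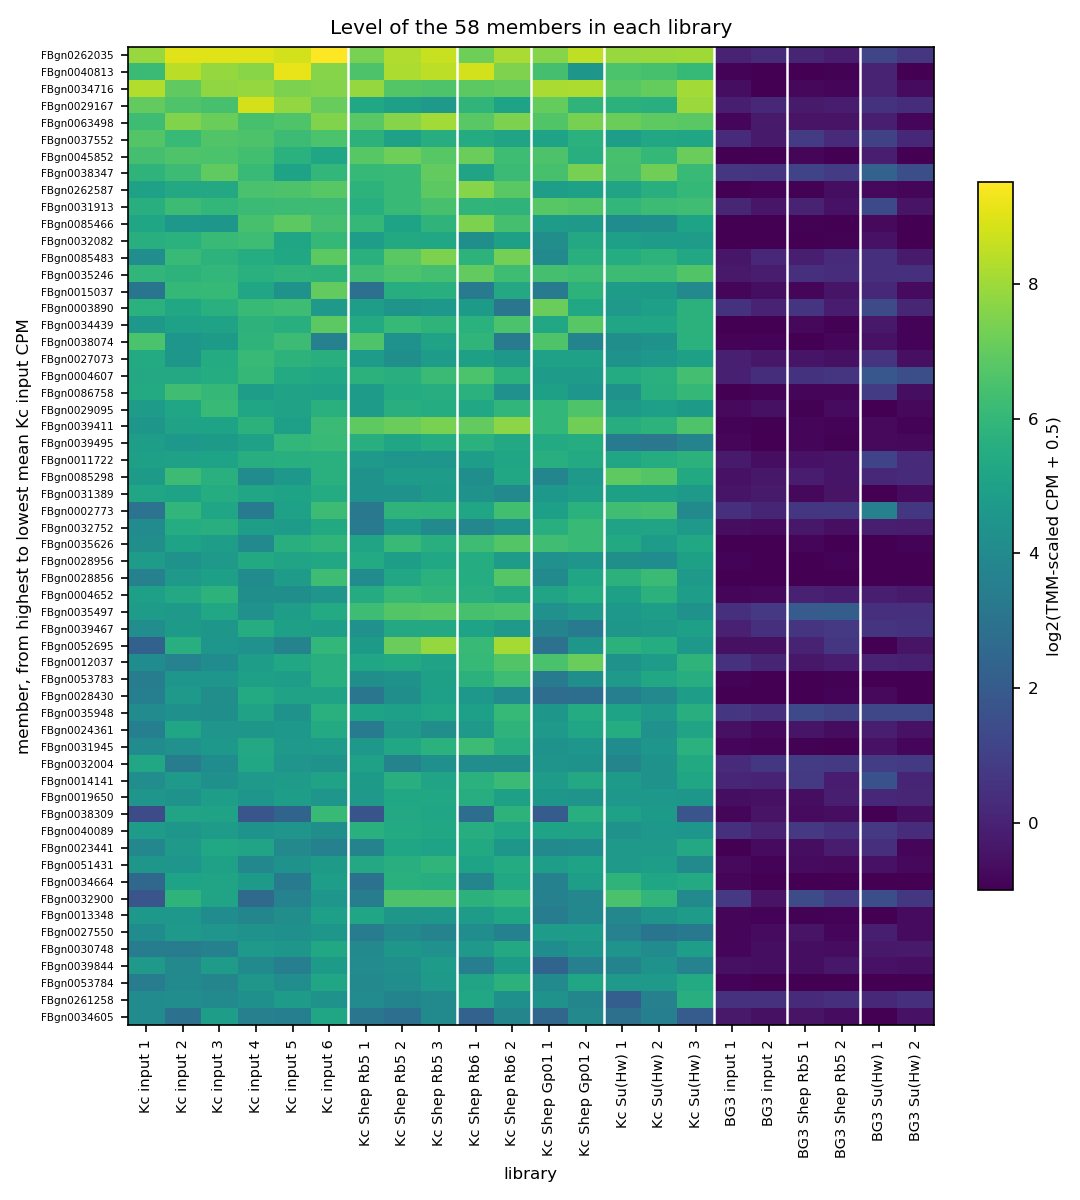
Level of each of the 58 genes (rows, from highest to lowest mean Kc input CPM) in each of the 22 libraries (columns, grouped by white lines), as log2 of TMM-scaled CPM plus 0.5. The 16 Kc libraries are mostly bright and the 6 BG3 libraries mostly dark. Single rows change brightness between the Kc antisera and between libraries of 1 group.

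The set as a whole was present in all 10 Kc precipitates. Its summed level in TMM-scaled CPM lay between 2306 and 4020 in the Kc inputs. It ran from 2468 to 4009 with Rb5, from 3520 to 3870 with Rb6, from 2646 to 3202 with Gp01 and from 2478 to 3060 with Su(Hw). These ranges overlap with that of the inputs. On library totals the Su(Hw) sums, at 1667 to 2438 CPM, lay below all inputs, at 2737 to 4487 CPM, so the scaling decides that difference. TMM factors were 0.639 to 0.797 in Kc Su(Hw), 0.981 to 1.19 in the Kc inputs and 1.04 to 1.43 in the Kc Shep libraries. In BG3 cells the sum reached 16.4 to 17.5 TMM-scaled CPM in the inputs, 23.9 to 26.8 with Rb5 and 24.7 to 54.3 with Su(Hw). On library totals the BG3 Su(Hw) sums, at 21.5 to 23.1 CPM, lay below the Rb5 sums, at 27.6 to 28.6 CPM. The order of these antisera in BG3 therefore depends on the scaling.

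The precipitates of both lines could be compared for Rb5 and Su(Hw), in libraries that took no part in choosing the genes. Every one of the 58 was higher in all 10 Kc precipitates than in all 4 BG3 precipitates (CPM on library totals). The same held for 6.67% of the 14958 genes with a read there and for 10.3% of the 4367 genes at 20 CPM in the Kc inputs. In a fit of the precipitates alone, edgeR called 55 of 58 higher in Kc than in BG3 with Rb5, where 12.3% of all 9860 tested genes were called higher. With Su(Hw) it also called 55 higher, against 13.8% of all genes. In either direction it called 23.2% and 28.6% of all genes. Among genes at 20 CPM in the Kc inputs it called 19.6% with Rb5 (15.6% higher and 4.01% lower) and 25.2% with Su(Hw) (19.5% higher and 5.68% lower). In these bulk libraries, fewer cells with an RNA and less of it per cell cannot be told apart. In both antisera, 0 of the 58 were called lower, and DESeq2 called 55 and 57 of them, beside 2593 and 3112 genes in all. All 58 passed the filter on low counts through the Kc libraries, where they are high, so these counts describe the genes and support nothing further. Kc and BG3 Rb5 libraries share no sequencing class and are linked only through the Su(Hw) libraries. Within the class that holds both lines for Su(Hw), the median log2 difference was 5.36 and all 55 kept their direction. Directions within a class, here and below, reuse libraries that gave the calls and are no separate check.

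The difference between the lines spanned more than a factor of 10 for all 58. The rule already required means of at least 20 CPM in the Kc inputs and below 1 CPM in the BG3 inputs. A wide difference between the lines was thus part of the choice, and the ratios are a description with no test. On library totals, the Kc mean over the pooled BG3 level with Rb5 ran from 19.5 to 3830 for the 44 genes with more than 3 counts in BG3, with a median of 115. With Su(Hw) it ran from 16.9 to 1063 for 45 such genes, with a median of 96.5. The smallest ratios belonged to FBgn0032004 (19.5, Rb5) and FBgn0002773 (16.9, Su(Hw)), which were picked out after their values were seen. Setting BG3 groups with 0 counts to a floor of 3 counts over the group gave medians over all 58 of 166 and 122.

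FBgn0053784 was at 14.8, 17.6 and 24.9 TMM-scaled CPM in Kc Rb5 1, 2 and 3 and had 0 counts in both BG3 Rb5 libraries. Its level was at least 680-fold higher in Kc (Kc mean on library totals against 3 counts over the group; edgeR, adjusted p = 2.92e-07). FBgn0040813 was at 96.0, 294 and 354 TMM-scaled CPM in Kc Rb5 and had 1 count over both BG3 Rb5 libraries. With so few counts the ratio of 26155 has a 95% counting interval from 4694 to 1033070, which covers counting error only (edgeR, adjusted p = 0.000349). With Su(Hw), FBgn0053783 was at 24.6, 39.6 and 46.4 TMM-scaled CPM in Kc and had 0 counts in BG3, at least 534-fold (edgeR, adjusted p = 9.82e-08). FBgn0034664 was at 56.6, 37.1 and 42.5 TMM-scaled CPM in Kc Su(Hw) and had 0 counts in BG3, at least 657-fold (edgeR, adjusted p = 0.0203). These 4 genes, like the rest, were chosen for low BG3 inputs and passed the filter through the Kc libraries. Their p-values therefore describe them and support nothing further. For all 4 genes every Kc precipitate of the antiserum lay above both BG3 ones. The last call is lost without either BG3 Su(Hw) library (adjusted p of up to 0.0780).

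The genes that missed the call in both antisera were FBgn0002773, FBgn0032900 and FBgn0038309, named after their values were seen. They vary widely within Kc cells: FBgn0038309 was at 2.83, 39.9 and 35.7 TMM-scaled CPM in Rb5 1, 2 and 3 and at 31.5, 26.2 and 2.87 TMM-scaled CPM in Su(Hw) 1, 2 and 3. It was at most 0.152 TMM-scaled CPM in the BG3 precipitates, so the groups did not overlap (edgeR, adjusted p = 0.158 and 0.118). FBgn0002773 gave the highest value of the 58 in any BG3 precipitate, 4.84 CPM on library totals in BG3 Su(Hw) 1. That library has the lowest TMM factor of all, 0.426, and the scaled value is 11.4 CPM. On library totals, 45 of the 58 stayed below 1 CPM in all 4 BG3 precipitates and 6 reached 2 CPM in some.

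**Figure D2:**
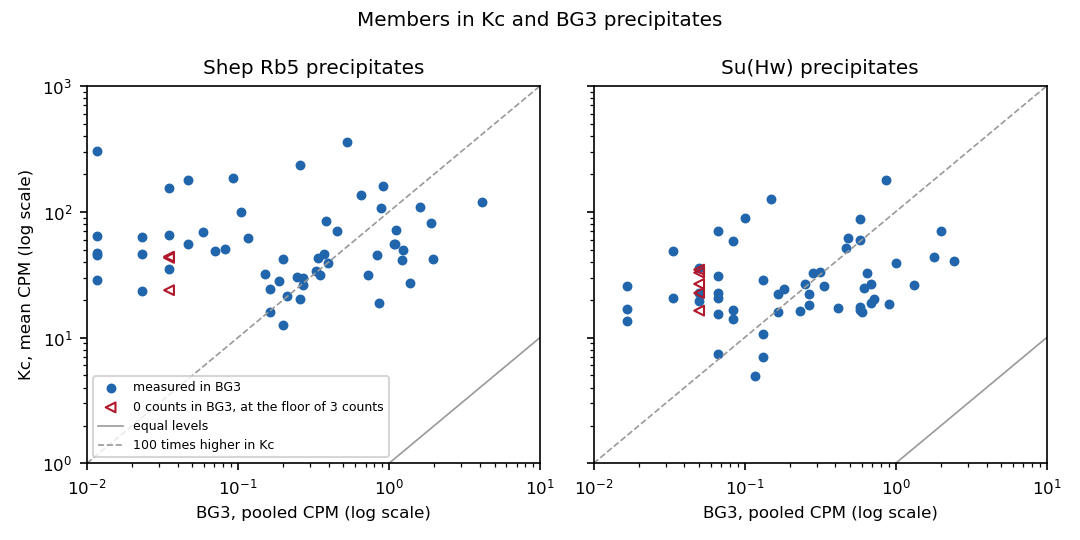
Mean CPM in the Kc precipitates (vertical, log scale) against pooled CPM in the BG3 precipitates (horizontal, log scale), on library totals, for the 58 genes with Rb5 and Su(Hw). All points lie above the line of equal levels, and red triangles, with 0 counts in BG3, stand at the floor of 3 counts.

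Within Kc cells, tests of 1 antiserum against another use no input library. They are not wholly independent of the inputs that chose the genes, since Rb5 libraries deviated from their group mean together with the inputs of the same number (r = 0.69, 0.54 and 0.35 over 5687 genes). The values were 0.47 and 0.29 for Rb6, 0.54 and 0.27 for Gp01 and -0.14, 0.07 and -0.48 for Su(Hw). Rb5 against Su(Hw) was the comparison between the 2 proteins with 3 libraries each. Of the 58, edgeR called 11 higher and 3 lower with Rb5, together 24.1% of them, and 21.5% of all 9860 tested genes were called in either direction (12.1% higher and 9.43% lower). Among the genes at 20 CPM in the Kc inputs the share was 27.5%, with 17.6% higher and 9.92% lower. The median log2 difference was 0.39 over the 58, 0.03 over all genes and 0.14 over genes at 20 CPM. It was 0.30 within GA II and 0.46 within the class of both machines, and all 14 called genes kept their direction in both. The count depended on single libraries, at 3 without Rb5 3, 3 without Su(Hw) 2 and 0 without Su(Hw) 1.

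FBgn0039495 was the gene with the largest rise in Rb5 against Su(Hw). It stood at 49.5, 37.1 and 44.6 TMM-scaled CPM in Rb5 1, 2 and 3 and at 9.36, 8.44 and 12.4 TMM-scaled CPM in Su(Hw) 1, 2 and 3. All Rb5 libraries lay above all Su(Hw) libraries (log2 difference 2.31 ± 0.29, SE, edgeR, adjusted p = 0.000577). The Kc inputs held it at 24.1, 30.5 and 70.2 TMM-scaled CPM (lowest, median and highest), so it was the Su(Hw) libraries that lay below the inputs.

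FBgn0035497 showed the opposite arrangement, with the Rb5 libraries apart from Su(Hw) and the inputs. Rb6, at 88.1 and 92.4 TMM-scaled CPM, lay within the Rb5 range. It stood at 74.8, 102 and 111 TMM-scaled CPM with Rb5 and at 23.6, 29.2 and 20.6 TMM-scaled CPM with Su(Hw). The groups did not overlap (log2 difference 1.93 ± 0.25, edgeR, adjusted p = 0.000766). The Kc inputs ran from 19.5 through a median of 28.1 to 42.1 TMM-scaled CPM, so all Rb5 libraries also lay above all inputs.

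FBgn0085298 was lower with Rb5 than with Su(Hw). It stood at 20.1, 27.8 and 26.7 TMM-scaled CPM with Rb5 and at 119, 105 and 42.0 TMM-scaled CPM with Su(Hw), without overlap although Su(Hw) 3 lay far below the other two (log2 difference -2.16 ± 0.24, edgeR, adjusted p = 0.000496). FBgn0032752 stood at 9.37, 23.7 and 15.6 TMM-scaled CPM with Rb5 and at 33.2, 34.5 and 25.2 TMM-scaled CPM with Su(Hw), again without overlap (log2 difference -1.06 ± 0.33, edgeR, adjusted p = 0.0370). On library totals its groups overlapped, at 12.7, 30.2 and 18.1 CPM with Rb5 and 24.1, 22.1 and 20.1 CPM with Su(Hw). The means were then 20.4 and 22.1 CPM, so the scaling decides that difference. The first 3 of these genes lost the call without Su(Hw) 1 alone among the alternatives, with adjusted p of up to 0.0629. FBgn0032752 lost it under 5 of 14 alternatives, among them without Rb5 3, Su(Hw) 1 or Su(Hw) 2.

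Rb6 and Gp01 are antisera against the same protein, Shep, with 2 Kc libraries each. Of the 58, edgeR called 15 higher and 5 lower with Rb6, together 34.5%, and 25.6% of all genes were called in either direction (13.3% higher and 12.3% lower). Among genes at 20 CPM the share was 37.7%, with 15.8% higher and 21.9% lower. The median log2 difference was 0.32 over the 58, 0.09 over all genes and -0.08 over genes at 20 CPM. Within the PHRED33 and PHRED64 classes it was 0.36 and 0.43, and all 20 called genes kept their direction in both. With 2 libraries per antiserum the count fell to 2 without Gp01 1, 7 without Gp01 2, 2 without Rb6 1 and 6 without Rb6 2.

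FBgn0052695 had the largest difference, at 68.0 and 278 TMM-scaled CPM in Rb6 1 and 2 and 7.09 and 23.3 TMM-scaled CPM in Gp01 1 and 2. Both Rb6 libraries lay above both Gp01 libraries (log2 difference 3.42 ± 0.89, edgeR, adjusted p = 0.0303). In both antisera library 2 was the higher one. FBgn0040813 stood at 447 and 180.0 TMM-scaled CPM with Rb6 and at 84.8 and 23.5 TMM-scaled CPM with Gp01, with library 1 the higher one (log2 difference 2.66 ± 0.71, edgeR, adjusted p = 0.0262).

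FBgn0003890 was lower with Rb6, at 25.8 and 8.34 TMM-scaled CPM, than with Gp01, at 137 and 38.2 TMM-scaled CPM (log2 difference -2.30 ± 0.47, edgeR, adjusted p = 0.00436). FBgn0032752 was also lower with Rb5 than with Su(Hw) on the TMM scale. With Rb6 it stood at 14.2 and 20.1 TMM-scaled CPM and with Gp01 at 47.6 and 68.2 TMM-scaled CPM (log2 difference -1.75 ± 0.36, edgeR, adjusted p = 0.00340). Neither gene's groups overlapped. FBgn0035497, added here after its values were seen, stood at 88.1 and 92.4 TMM-scaled CPM with Rb6 and at 19.4 and 24.9 TMM-scaled CPM with Gp01, also without overlap (log2 difference 2.04 ± 0.26, edgeR, adjusted p = 0.000269). Each of the calls for FBgn0052695, FBgn0040813, FBgn0003890 and FBgn0032752 was lost when at least 3 of the 4 libraries were left out in turn, with adjusted p of up to 0.311. FBgn0040813 also lost it with DESeq2 and with a replicate block, and FBgn0052695 without the filter on low counts.

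Gp01 against Su(Hw) gave almost no calls. edgeR called 1 of the 58, lower with Gp01, and 0.193% of all genes (0.0406% higher and 0.152% lower), while 18 of the 58 and 1498 of 9860 genes had an unadjusted p under 0.05. DESeq2 called 8 of the 58 and 430 genes in all. Among genes at 20 CPM the share was 0.252%, with 0.0229% higher and 0.229% lower. The called gene, FBgn0053783, stood at 9.34 and 18.3 TMM-scaled CPM with Gp01 and at 24.6, 39.6 and 46.4 TMM-scaled CPM with Su(Hw), without overlap (log2 difference -2.19 ± 0.37, edgeR, adjusted p = 0.0465). It lost the call with RLE size factors and without any 1 of Gp01 1, Gp01 2, Su(Hw) 1 and Su(Hw) 2. The groups share a single class with 1 library each. A p that misses the threshold does not show that the antisera recovered the 58 alike.

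**Figure D3:**
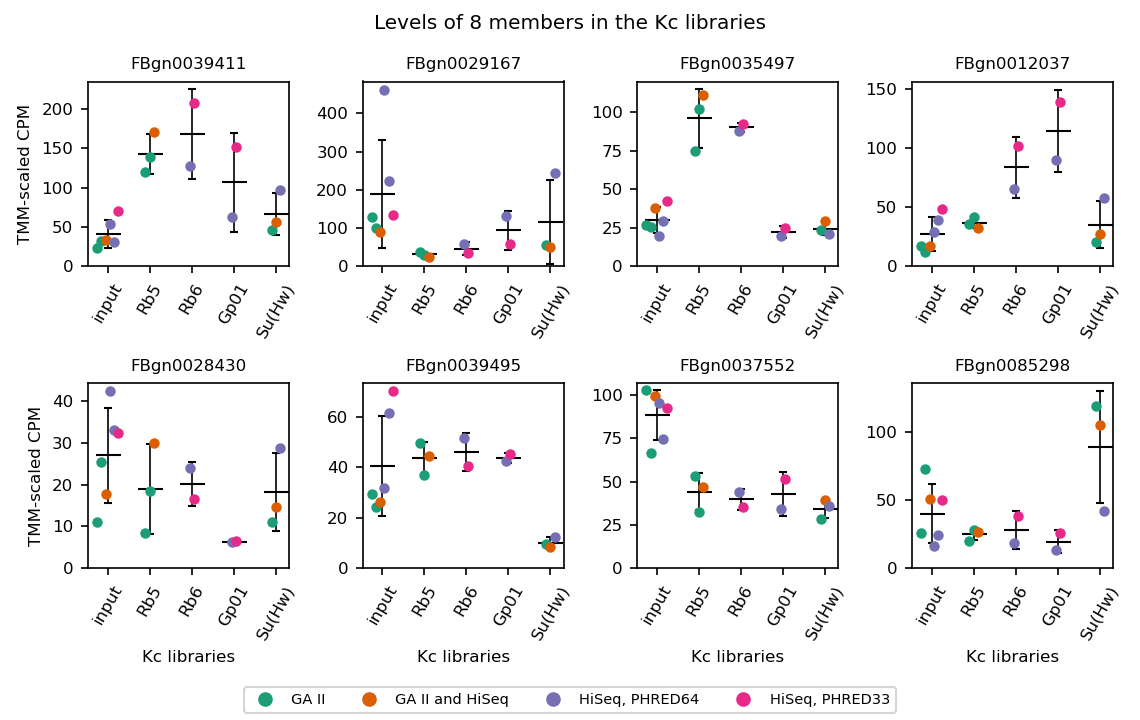
TMM-scaled CPM of 8 of the 58 genes in the Kc libraries. Each point is a library, coloured by sequencing class, and bars give the mean and SD of a group (n = 6, 3, 2, 2 and 3 from left to right). FBgn0035497 is high with Rb5 and Rb6 alone, FBgn0039495 is low with Su(Hw) alone, and FBgn0085298 reaches its highest levels in Su(Hw) 1 and 2.

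In BG3 cells, where the levels of the 58 are low, Rb5 was set against Su(Hw) after the data had been seen. edgeR called 1 of the 58 higher and 4 lower, together 8.62%, and 9.62% of all genes were called in either direction (5.49% higher and 4.14% lower), or 12.1% of those at 20 CPM in the Kc inputs (8.54% and 3.6%). The gene called higher was FBgn0035497, at 3.57 and 3.79 TMM-scaled CPM with Rb5 and at 0.841 and 0.823 TMM-scaled CPM with Su(Hw). The BG3 inputs held it at 0.830 and 1.19 TMM-scaled CPM, so both Rb5 libraries lay above all other BG3 libraries (log2 difference 2.15 ± 0.32, edgeR, adjusted p = 0.00160). The Kc and BG3 libraries compared here are different ones, and the Rb5 difference from Su(Hw) for this gene was 1.93 ± 0.25 on the log2 scale in Kc and 2.15 ± 0.32 in BG3. The call in BG3 was kept without each of the 4 libraries in turn and missed the threshold when only these groups were fitted (adjusted p = 0.0532).

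Among the genes called lower in BG3, FBgn0011722 stood at 0.208 and 0.266 TMM-scaled CPM with Rb5 and at 1.68 and 0.701 TMM-scaled CPM with Su(Hw) (log2 difference -2.11 ± 0.45, edgeR, adjusted p = 0.0103). FBgn0004607 stood at 0.973 and 1.01 TMM-scaled CPM with Rb5 and at 3.15 and 2.38 TMM-scaled CPM with Su(Hw) (log2 difference -1.44 ± 0.31, edgeR, adjusted p = 0.0117). Neither gene's groups overlapped. Without Rb5 1, Rb5 2 or Su(Hw) 1 the count of genes called lower was 0, and without Su(Hw) 2 it was 8, with 1 called higher each time.

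Against the Kc inputs, each antiserum was tested over all 22 libraries and 9761 genes. The 4 comparisons share the 6 Kc inputs, and those inputs also chose the genes, so the directions cannot be told apart from that choice. With Rb5, edgeR called 14 of the 58 higher and 8 lower, beside 30.6% of all genes in either direction (17.2% higher and 13.4% lower) and 41% of those at 20 CPM (17.3% and 23.7%). With Rb6 it called 12 higher and 9 lower, beside 31.4% of all genes (17.3% and 14.1%) and 40% of those at 20 CPM (14.1% and 25.9%). With Gp01 it called 7 higher and 16 lower, beside 20.9% of all genes (10.7% and 10.1%) and 26.1% of those at 20 CPM (9.5% and 16.6%). With Su(Hw) it called 8 higher and 9 lower, beside 24.5% of all genes (12.2% and 12.4%) and 30.2% of those at 20 CPM (8.31% and 21.8%). The shares of the 58 called in either direction were 37.9% with Rb5, 36.2% with Rb6, 39.7% with Gp01 and 29.3% with Su(Hw). Those with Rb5, Rb6 and Su(Hw) lay between the share of all genes and 41%, 40% and 30.2%. That with Gp01 lay above both 20.9% and 26.1%, and was 27.6% for genes called lower, while the count in both directions fell from 23 to 10 or fewer without any 1 of 3 libraries, to 6 without the sequencing class and to 14 with a replicate block.

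The median log2 difference of the 58 from input was 0.39 with Rb5, 0.13 with Rb6, -0.35 with Gp01 and -0.02 with Su(Hw), beside 0.14, 0.27, 0.10 and 0.08 over all genes. Over the genes at 20 CPM it was -0.11, -0.17, -0.07 and -0.19, so with Rb6 and Su(Hw) the median of the 58 lay below that of all genes and above that of these genes. Within the sequencing classes it was 0.28 and 0.43 with Rb5, 0.01 and 0.22 with Rb6, -0.47 and -0.34 with Gp01 and 0.00, 0.12 and -0.18 with Su(Hw). Every called gene kept its direction in each class, in the same libraries that gave the calls. The Rb5 count was 14 without input 3, 14 without Rb5 2 and 9 without Rb5 3, and the Rb6 count 2 without Rb6 1 and 12 without Rb6 2. The Gp01 count was 10 without input 6, 2 without Gp01 1 and 10 without Gp01 2. The Su(Hw) count was 11 without input 3, 10 without Su(Hw) 1, 9 without Su(Hw) 2 and 10 without Su(Hw) 3.

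**Figure D4:**
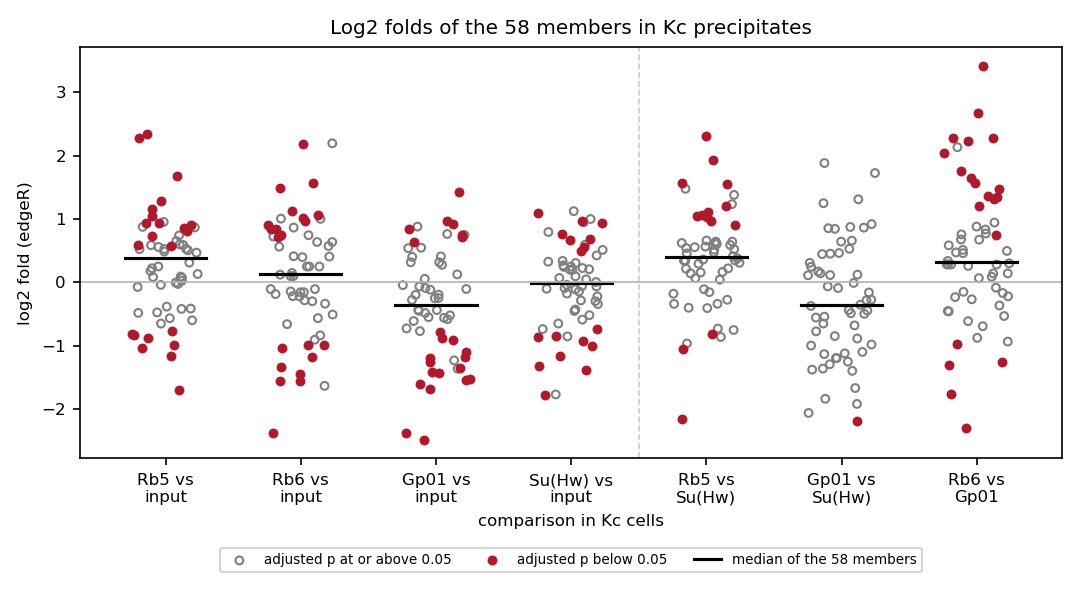
Log2 difference (edgeR) of the 58 genes in 7 comparisons of Kc libraries, 4 of precipitates with input on the left of the dashed line and 3 between precipitates on the right. Filled red points have an adjusted p below 0.05 and black bars mark the median of the 58, which lies between -0.36 (Gp01 against Su(Hw)) and 0.39 (Rb5 against input and Rb5 against Su(Hw)).

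Among the genes above input with Rb5, FBgn0039411 stood at 119, 139 and 170.1 TMM-scaled CPM, while the inputs ran from 23.2 through a median of 33.2 to 70.8 TMM-scaled CPM. All Rb5 libraries lay above all inputs (log2 difference 2.34 ± 0.22, edgeR, adjusted p = 3.85e-06). The inputs also chose the genes, so this p-value and those against input below are not independent of that choice. Other Kc levels of FBgn0039411 were 127 and 208 TMM-scaled CPM with Rb6, 62.0 and 151 TMM-scaled CPM with Gp01 and 46.3, 55.9 and 97.2 TMM-scaled CPM with Su(Hw). These last 2 groups overlap with the inputs, although the gene was called higher than input with each of the antisera. FBgn0052695 stood at 26.0, 139.5 and 234 TMM-scaled CPM with Rb5 and at 4.26, 20.8 and 61.8 TMM-scaled CPM in the inputs (lowest, median and highest), with overlap through Rb5 1 (log2 difference 2.27 ± 0.70, edgeR, adjusted p = 0.0249). It lost the call without input 3, Rb5 2 or Rb5 3 (adjusted p of up to 0.202).

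FBgn0029167 lay furthest below input with both Rb5 and Rb6. The fall was not particular to them, since the gene was also called lower with Gp01 and Su(Hw). Gp01 held 130 and 57.3 TMM-scaled CPM and Su(Hw) 54.4, 49.0 and 243 TMM-scaled CPM, both with overlap with the inputs. The inputs ran from 88.2 through a median of 131 to 461 TMM-scaled CPM, and Rb5 held 37.8, 30.2 and 24.3 TMM-scaled CPM, without overlap (log2 difference -1.70 ± 0.24, edgeR, adjusted p = 5.77e-05). Rb6 held 57.7 and 33.7 TMM-scaled CPM, also below every input (log2 difference -2.38 ± 0.30, edgeR, adjusted p = 2.98e-05). With the class exchanged for a replicate block, the Rb6 call was lost (adjusted p = 0.138). FBgn0032752, described above, was lower with Rb5 than in the inputs, at 16.3, 34.8 and 49.7 TMM-scaled CPM (lowest, median and highest), and overlapped with them (log2 difference -1.15 ± 0.32, edgeR, adjusted p = 0.0100). It lost the call without input 2 or Rb5 3 (adjusted p of up to 0.0775).

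With Rb6, FBgn0052695 at 68.0 and 278 TMM-scaled CPM lay above every input (log2 difference 2.18 ± 0.74, edgeR, adjusted p = 0.0379), and it lost the call under 7 of 15 alternatives (adjusted p of up to 0.339). FBgn0035497 at 88.1 and 92.4 TMM-scaled CPM also lay above every input (log2 difference 1.57 ± 0.21, edgeR, adjusted p = 5.11e-05), with the call lost without Rb6 1 (adjusted p = 0.0529). Gp01 held FBgn0035497 at 19.4 and 24.9 TMM-scaled CPM, within or just below the range of the inputs. FBgn0262035, the most abundant of the 58, was lower with Rb6, at 146 and 294 TMM-scaled CPM, with overlap with the inputs (log2 difference -1.56 ± 0.33, edgeR, adjusted p = 0.00181), and lost the call without Rb6 1. It was also called lower than input with Gp01 and Su(Hw), though not with Rb5. Gp01 held 196 and 364 TMM-scaled CPM and Su(Hw) 241, 245 and 260 TMM-scaled CPM, again with overlap with the inputs.

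Gp01 had the highest level of FBgn0012037, at 89.6 and 139 TMM-scaled CPM. The inputs ran from 12.1 through a median of 23.1 to 48.3 TMM-scaled CPM, without overlap (log2 difference 1.42 ± 0.21, edgeR, adjusted p = 0.000226). The rise was not particular to Gp01, since the gene was also called higher than input with Rb5, Rb6 and Su(Hw). Rb6, at 65.3 and 102 TMM-scaled CPM, also lay above every input and overlapped with Gp01. FBgn0038347 stood at 86.3 and 165 TMM-scaled CPM with Gp01 and at 34.1, 65.2 and 123 TMM-scaled CPM in the inputs, with overlap (log2 difference 0.97 ± 0.27, edgeR, adjusted p = 0.0170). It lost the call under 7 of 15 alternatives (adjusted p of up to 0.178).

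FBgn0028430 was at 6.18 and 6.52 TMM-scaled CPM with Gp01, below every input, at 11.1, 29.0 and 42.5 TMM-scaled CPM (log2 difference -2.48 ± 0.44, edgeR, adjusted p = 0.000962). Without Gp01 1, or with the replicate number as a block, the call was lost (adjusted p of up to 0.0676). FBgn0040813 at 84.8 and 23.5 TMM-scaled CPM overlapped with the inputs, which ran from 70.9 through a median of 215 to 579.6 TMM-scaled CPM (log2 difference -2.38 ± 0.76, edgeR, adjusted p = 0.0405). It lost the call under 6 of 15 alternatives, among them without input 5, input 6, Gp01 1 or Gp01 2 (adjusted p of up to 0.256).

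With Su(Hw), the 2 largest falls among the called genes held under every alternative run. FBgn0039495 at 9.36, 8.44 and 12.4 TMM-scaled CPM lay below every input (log2 difference -1.77 ± 0.27, edgeR, adjusted p = 0.000274). FBgn0037552 at 28.1, 39.2 and 35.8 TMM-scaled CPM lay below inputs that ran from 66.8 through a median of 93.9 to 103 TMM-scaled CPM (log2 difference -1.38 ± 0.27, edgeR, adjusted p = 0.00184). FBgn0037552 was also below every input with Rb5, at 53.2, 32.3 and 46.7 TMM-scaled CPM, with Rb6, at 44.1 and 35.3 TMM-scaled CPM, and with Gp01, at 33.9 and 51.7 TMM-scaled CPM.

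The rises with Su(Hw) were smaller. FBgn0085298 at 119, 105 and 42.0 TMM-scaled CPM overlapped with inputs from 16.3 through a median of 38.1 to 72.9 TMM-scaled CPM (log2 difference 1.10 ± 0.24, edgeR, adjusted p = 0.00364), and lost the call with the replicate number as a block (adjusted p = 0.0934). FBgn0053784 at 24.9, 25.2 and 42.2 TMM-scaled CPM overlapped with inputs from 10.4 through a median of 16.7 to 36.8 TMM-scaled CPM (log2 difference 0.96 ± 0.20, edgeR, adjusted p = 0.00354), and lost it without the sequencing class (adjusted p = 0.199). On library totals FBgn0053784 hardly rose, with means of 22.6 CPM with Su(Hw) and 21.3 CPM in the inputs. For FBgn0085298 these means were 62.3 and 42.4 CPM.

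The 58 also varied between libraries of 1 group. The highest over the lowest TMM-scaled CPM among the 6 Kc inputs had a median of 3.05 over the 58 and 1.88 over the 4367 genes at 20 CPM, which include the 58 and were not matched on level. A factor of 5 or more occurred for 13 of the 58 (22.4%) and 2.40% of the 4367. The widest was FBgn0038309, at 31.2. Input 1 was the lowest of the 6 for 28 of the 58, and input 6 the highest for 25. Since a high value in any input helps a gene reach the threshold mean, this spread is a description with no test.

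Part of that spread also appeared between libraries that differ in sequencing class, which the design does not separate from other differences between them. PHRED33 minus PHRED64 could be formed in the inputs (6 against 4 and 5), with Gp01 (2 against 1) and with Rb6 (2 against 1), which share no library. All 3 differences were positive for 29 of the 58 and negative for 11, together 69.0%, beside 64.2% of the 4367 genes. All 3 were at least 2-fold in the same direction for 6 upwards and 2 downwards, together 13.8% beside 1.92%. These 8 were picked out after their values were seen.

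The largest upward difference was that of FBgn0038309, at 3.99 in the inputs, 3.56 with Gp01 and 3.01 with Rb6 on the log2 scale. FBgn0015037 gave 2.14, 2.45 and 2.03, and FBgn0052695 gave 1.93, 1.65 and 2.02. FBgn0085483, FBgn0028856 and FBgn0034605 lay between 1.23 and 1.77. The downward ones were FBgn0038074, at -2.45, -2.89 and -2.61, and FBgn0003890, at -1.51, -1.83 and -1.57. Large differences also occurred within the GA II class alone (CPM on library totals). FBgn0038309 stood at 2.59 and 34.5 CPM in Kc inputs 1 and 2 and at 3.85 and 50.8 CPM in Rb5 1 and 2. FBgn0038074 stood at 109.7 and 22.5 CPM and at 134 and 25.6 CPM in the same libraries. FBgn0034605, at 19.2 and 7.10 CPM and at 11.1 and 8.53 CPM, was instead lower in library 2 of both groups.

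Across the 58, the input differences correlated with those of Gp01 (Pearson r = 0.90) and of Rb6 (0.89), and those of Gp01 with Rb6 (0.91). Over the 4367 genes the values were 0.79, 0.74 and 0.70. Genes are not independent, and the points share libraries, their depth and their scaling. In a test of the class within the Kc precipitates, added after the data had been seen, edgeR called 0 of the 58 and 0.0406% of all genes, while 22 of the 58 and 1461 of 9860 genes had an unadjusted p under 0.05. DESeq2 called 10 of the 58 and 245 genes in all. With 1 library per class and antiserum, the class cannot be told apart from other differences between library 1 and library 2. The class was a term in every fit, and its part in single values, such as FBgn0052695 and FBgn0003890 in Rb6 against Gp01, was not tested.

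**Figure D5:**
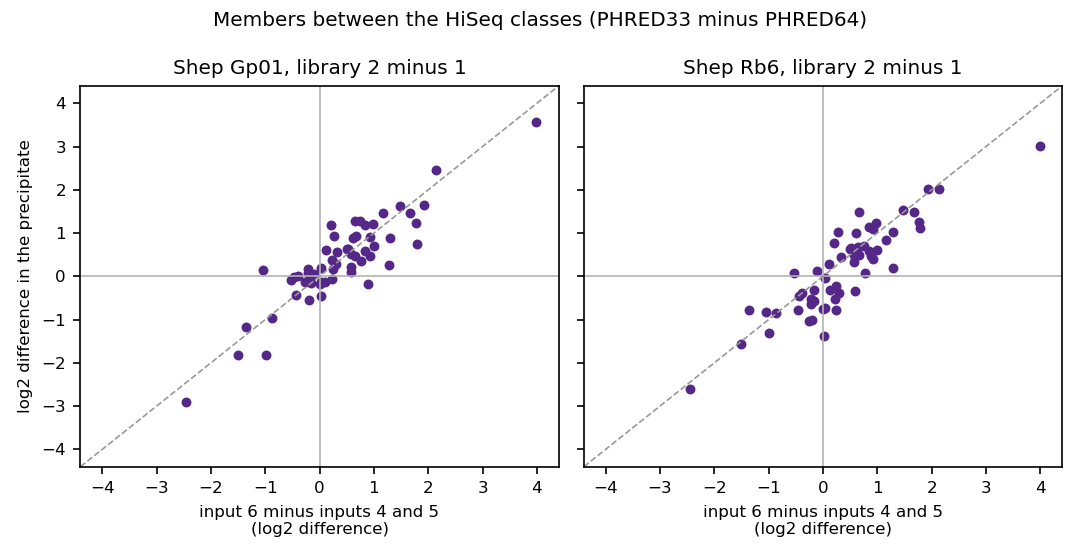
Log2 difference between the HiSeq classes for the 58 genes, in the inputs (horizontal, input 6 minus the mean of inputs 4 and 5) and in the precipitates (vertical, library 2 minus library 1), with Gp01 on the left and Rb6 on the right. Points follow the dashed line of equality, with FBgn0038309 at the upper right (3.99 in the inputs) and FBgn0038074 at the lower left (-2.45).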

How the data were processed

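The authors deposited raw read counts per gene (FBgn identifiers, no symbols). Per the submitters' processing notes, cutadapt 1.2.1, TopHat2, Bowtie2, HTSeq, DESeq and build dm3 were used. The annotation release was not given in the sources used here, nor was the strand setting. Counts of overlapping, antisense and near-identical genes are therefore uncertain. Lines naming no gene (50.2% to 91.2% of a library's counts) and FBgn0085813 (2.75% to 30.1% of gene counts) were left out of totals and tests.

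The genes, lists and tests were chosen with earlier results of these data known. Tests used edgeR 4.0.16 (R 4.3.3, limma 3.58.1) with the robust quasi-likelihood fit, TMM scaling, 1 mean per group, the sequencing class as a covariate and edgeR's filter (minimum count 10, total 15), which kept all 58. Precipitates were compared with input over all 22 libraries (9761 genes, 11 residual degrees of freedom) and with each other over the 14 precipitates (9860 genes, 5). P-values were adjusted over all tested genes by the Benjamini-Hochberg method, and a gene is called at an adjusted p below 0.05. The fit was tested on simulated data, where the share of false calls lay above the nominal one in the comparisons between precipitates and small changes were mostly missed.

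Of the identifiers, 172 (1.07%) have a symbol in the RefSeq table of Release 6 plus ISO1 MT, and 0 of the 58 do. Genes without a symbol are named where they are among the 2 largest called rises or falls of a comparison or lie next to a threshold. Others were chosen after their values were seen. Other settings tried were DESeq2 1.42.0, RLE scaling, no class, no filter, a replicate block, FBgn0085813 kept, other sets of libraries and leaving out each library.

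Rb5 and input libraries of the same number deviated together from their group means (r = 0.69, 0.54 and 0.35 over 5687 genes). They also share a sequencing class, so a pairing and the class cannot be told apart. Any pairing was read from these data, and the fit with the replicate block called 23 of the 58 in place of 22.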

Additional observations from a re-analysis of the deposited data

Results flagged for a closer look

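Of 25 groups of values tested for a single distant sample, 2 had one, and chance gives about 1 in 20. FBgn0029167 stood at 460.66 TMM-scaled CPM in Kc input 4, while the other 5 inputs lay between 88.2 and 223. FBgn0004607 stood at 64.1 TMM-scaled CPM in Kc input 4, while the other inputs lay between 38.6 and 45.2.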

How the results depend on the processing

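Of the values for single named genes under the alternatives, 370 kept direction and side of the threshold, 76 kept the direction and lost the call, and 0 reversed. The counts of the 58 called moved by more than 1.5 times as follows, and the cause was not tested. Without the sequencing class they were 14 (Rb5 against input), 6 (Gp01 against input), 7 (Su(Hw) against input), 9 (Rb5 against Su(Hw)), 7 (Gp01 against Su(Hw)), 13 (Rb6 against Gp01) and 3 (Rb5 against Su(Hw) in BG3). With the replicate block in place of the class they were 14 (Gp01 against input), 10 (Su(Hw) against input), 9 (Rb5 against Su(Hw)) and 6 (Gp01 against Su(Hw)), and these groups share only a number. RLE size factors gave 9 for Rb5 against Su(Hw) and 0 for Gp01 against Su(Hw). For Gp01 against Su(Hw), DESeq2 gave 8, no filter 5, only the compared groups 8 and all libraries 15. Only the compared groups gave 37 for Rb6 against Gp01 and 0 for Rb5 against Su(Hw) in BG3. For the class, DESeq2 gave 10 and all libraries 16.

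Leaving out 1 library gave 9 to 23 (Rb5 against input), 2 to 22 (Rb6), 2 to 22 (Gp01), 9 to 16 (Su(Hw)), 0 to 16 (Rb5 against Su(Hw)), 0 to 0 (Gp01 against Su(Hw)), 2 to 7 (Rb6 against Gp01), 52 to 57 and 52 to 55 (Kc against BG3 with Rb5 and Su(Hw)), 1 to 9 (Rb5 against Su(Hw) in BG3) and 0 to 0 (the class). A lone library was then assumed to vary like the other groups. The set held 89 genes at a Kc threshold of 10 CPM, 27 at 40 CPM, 51 on TMM-scaled CPM, 48 with FBgn0085813 kept in the totals, and 55 to 64 without 1 input.

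Not run, for want of a shared class or number, were Gp01 against Su(Hw) and Kc against BG3 (Su(Hw)) without Kc Su(Hw) 3, and the replicate block for Kc against BG3. Depth limits the low BG3 values, where 3 counts equal 0.0685 to 0.134 CPM.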
